A study of Mus musculus with 10 samples.

Results

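Blood vessels and connective tissue of the islet were read from 34 genes in a table of 17945 named genes: 15 that mark endothelial cells, and 19 taken as fibroblast and pericyte genes. The 34 were chosen by symbol, for what they are known to mark, and all were in the table. The libraries were of total RNA from islets of 18-week-old C57BL/6 mice. The 5 knockout libraries were labelled as carrying Pdx1-CreER with Grk5 flox/flox, and the 5 control libraries as carrying Grk5 flox/flox alone. Both groups thus carried the floxed alleles, and the Cre driver and the loss of Grk5 cannot be told apart. CreER is a Cre recombinase fused to a part of the estrogen receptor that tamoxifen activates. The labels do not mention a tamoxifen treatment. The Pdx1 promoter is active in β cells and is not known to be active in vessels or fibroblasts. The labels give no replicate numbers and do not tie libraries to animals, so the p-values rest on the spread among libraries, which may be technical.

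Islets are threaded by a dense bed of fenestrated capillaries. Endocrine cells make vascular endothelial growth factor A, encoded by Vegfa, which signals through the receptors encoded by Kdr and Flt1 on endothelial cells and keeps the capillaries open and fenestrated. The endothelial cells in turn lay down basement membrane. Its main collagen is type IV, built of 2 chains of the Col4a1 product with 1 of Col4a2. Pericytes wrap the capillaries, and fibroblasts with their fibrillar collagens lie mostly at the islet edge.

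The upstream sequences of the 2 VEGF receptor genes are shown because of how their values lay. Kdr was the single gene of the 26 tested whose knockout and control values did not overlap, against 0.862% of all genes tested. Those of Flt1, the receptor for the same ligand, did overlap. Each line gives the 250 bases before the annotated start, 5′ to 3′ on the gene's own strand, from RefSeq on GRCm38. The genes span 75932827 to 75978458 (Kdr) and 147561604 to 147726011 (Flt1) of chromosome 5 in GENCODE M21, both on the minus strand. For Kdr the window is chr5:75978456-75978705, minus strand, and for Flt1 chr5:147726012-147726261, minus strand. Capitals mark the ETS core AGGAAG, a motif of the factor family to which Erg belongs, and the SP1 box GGGCGG, both searched on either strand, so that CCGCCC is the SP1 box on the other strand.
Kdr: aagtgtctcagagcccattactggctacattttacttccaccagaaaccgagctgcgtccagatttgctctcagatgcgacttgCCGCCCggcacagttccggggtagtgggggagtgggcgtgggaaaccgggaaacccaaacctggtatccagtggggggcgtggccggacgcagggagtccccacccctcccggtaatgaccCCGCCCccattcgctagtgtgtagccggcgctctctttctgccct
Flt1: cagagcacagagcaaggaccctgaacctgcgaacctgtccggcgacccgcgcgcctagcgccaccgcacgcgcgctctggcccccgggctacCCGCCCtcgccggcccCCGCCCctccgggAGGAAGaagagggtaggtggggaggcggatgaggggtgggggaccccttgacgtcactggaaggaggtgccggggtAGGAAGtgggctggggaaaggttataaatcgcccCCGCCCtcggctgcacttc
The ETS core as AGGAAG starts at bases -129 and -53 from the start of Flt1 and is not in the Kdr window. The shorter GGAA, which ETS factors bind, was not searched and does occur in the Kdr window. The Kdr window is therefore not free of possible ETS sites. Of the 34 genes, 23 had a promoter in the RefSeq table. The ETS core was in 8 of 14 promoters of endothelial genes (57.1%, some genes having several) and in 2 of 16 of fibroblast and pericyte genes (12.5%), against 29.5% of 32851 promoters of all genes. The SP1 box was in 5 of the 14 and 8 of the 16, against 32.7% of all. The CArG box of smooth muscle genes was in none of the 30 and in 1.47% of all.

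Col4a1 and Col4a2 lie head to head on chromosome 8 and their annotated starts overlap, at 11312826 on the minus strand for Col4a1 and at 11312805 on the plus strand for Col4a2. The 22 shared bases are shown because the values of these 2 genes went far apart in knockouts 1, 2 and 4. In knockout 3 they did not, with Col4a1 at 459.1 and Col4a2 at 446.7. They are in capitals within chr8:11312801-11312830 of GRCm38, plus strand, with 4 bases on each side.
Col4a1 and Col4a2: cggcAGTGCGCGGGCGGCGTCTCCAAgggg

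The deposited values are normalized counts per gene, with library totals of 5534386 to 7358040, and are not whole reads. Read from the steps between low values, depth ran from about 2072840 reads in knockout 1 to about 10950982 in knockout 3. In controls 2, 3 and 5, between 10.2% and 11.9% of values above 0 lay midway between such steps (within 0.01 of a step), against 1.20% to 1.44% in the other 7 libraries, so their depth may be underestimated. These 3 are all controls, and no comparison could be made among them. No 2 libraries held identical values. The targeted gene overlapped between groups, with Grk5 at 94.4 to 269.8 in knockouts and 127.9 to 386.9 in controls (log2 fold change -0.55 ± 0.42 SE, limma adjusted p = 0.955). It was -0.94 without controls 2 and 5, which hold the 2 lowest control values of Grk5, 165.0 and 127.9, and -0.36 without control 3. The estrogen receptor gene Esr1, part of which is in CreER, was at 1516.7 to 3176.8 in the knockouts, and at 2495.0 and 773.5 in controls 2 and 5, where the other 3 controls held 0.0 to 10.5. Controls 2 and 5 thus differ in Esr1 from the other controls that share their label. Whether these values come from CreER or from the mouse's own Esr1 was not tested, so they do not give the genotype. Results were also computed without controls 2 and 5.

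An exact 0 was not a safe sign of absence. Of 3231 genes with a mean of at least 300 normalized counts, 47 (1.45%) were listed at 0 in at least 1 library. Esr1 was among the 47. Knockout 1 was listed at 0 even for the ribosomal protein genes Rpl18 and Rps13, which every cell uses and which were named after their values were seen. Genes with any 0 are therefore given by library or by their range, without a mean.

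The markers were checked first. A gene entered the test with at least 10 normalized counts in at least 5 libraries, which 14 of the 15 endothelial genes did. The exception was Cldn5, a tight junction gene, at 2.6 in knockout 3 and listed at 0 in the other 9 libraries. Of the fibroblast and pericyte genes, 12 of 19 were tested. The 7 others were Col5a1, Dcn, Lum, Cspg4, Thy1, Mfap5 and Fbln1. Decorin and lumican, 2 proteoglycans that define fibroblasts, reached at most 35.3 (Dcn, knockout 4) and 53.2 (Lum, control 1). The microfibril and elastic fibre genes Mfap5 and Fbln1 reached at most 9.2 and 9.1, both among controls. Cspg4, the pericyte proteoglycan NG2, was at 41.9 and 80.0 in knockouts 2 and 4 and listed at 0 in the other 8 libraries. The pericyte gene Rgs5 was in contrast at 394.0 or more in every library. The label thus holds for endothelial cells and for Rgs5 and basement membrane, while 6 of the 11 fibroblast matrix genes were too low to test.

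**Figure D1:**
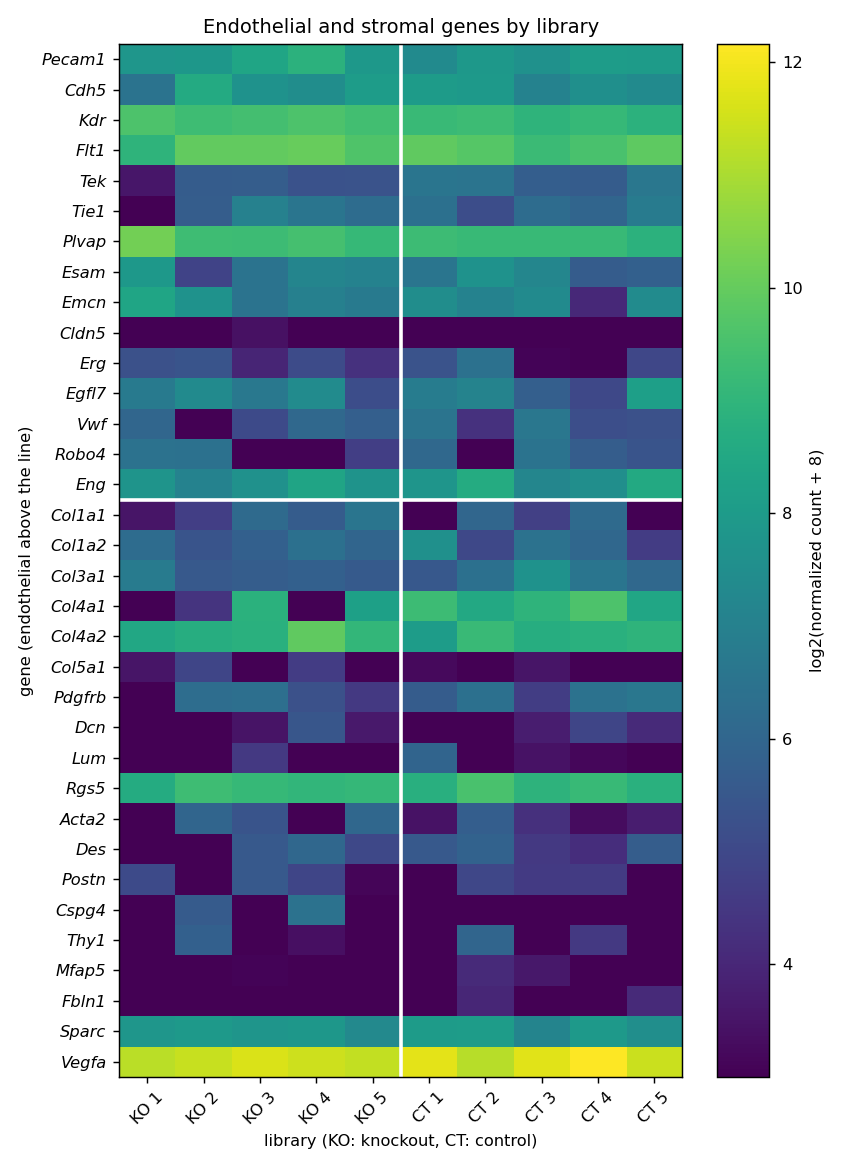
Log2(normalized count + 8) of the 34 genes (rows, endothelial above the horizontal line) in each library (columns, 5 knockouts left and 5 controls right of the vertical line); dark cells are at or near 0. Vegfa, Flt1, Kdr, Plvap, Rgs5 and Col4a2 are bright in all 10 libraries, Cldn5, Mfap5 and Fbln1 are dark in nearly all, and Col4a1 is dark in knockouts 1, 2 and 4.

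Levels were compared between genes per kilobase of exon, as the mean of 10 libraries ± SD. Vegfa was highest at 704 ± 161 normalized counts per kilobase. Plvap, which encodes the diaphragm protein of fenestrae, followed at 324 ± 99.95, and Rgs5 at 117 ± 22.1. Then came Col4a2 (73.7 ± 28.7), Kdr (69.0 ± 11.3), Flt1 (62.2 ± 13.4), the TGF-β co-receptor gene Eng (57.5 ± 23.2), the collagen-binding protein gene Sparc (55.4 ± 11.3), Cdh5 (48.7 ± 19.997), which encodes VE-cadherin of endothelial junctions and Pecam1 (40.9 ± 13.6). Each neighbour from Col4a2 to Pecam1 differed by less than its spread. The angiopoietin receptor Tek was much lower, at 10.7 ± 6.01 per kilobase. How the deposited values were scaled, and whether by a factor of its own for each gene, is not known, so this order and the shares of summed values below hold on the deposited scale only.

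None of the 26 tested genes passed an adjusted p of 0.05 by limma, as none of all 11711 genes did (0% called). At an unadjusted p under 0.05 stood 1 of the 26, Col4a1, lower in the knockouts, against 5.01% of all genes tested (2.66% lower and 2.36% higher in knockouts). By limma the medians were near 0. The 14 endothelial genes had 9 values above and 5 below 0, with a median log2 fold change of 0.09, knockout over control. Without control 3 or control 4 the number above 0 was 5, and without control 4 the median was -0.13. Over the 12 fibroblast and pericyte genes there were 6 above and 6 below, with a median of -0.00, or -0.19 without control 5. Over all genes tested 47.6% were above 0, with a median of -0.03. In whole islets, fewer cells of a type and less RNA per cell cannot be told apart.

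**Figure D2:**
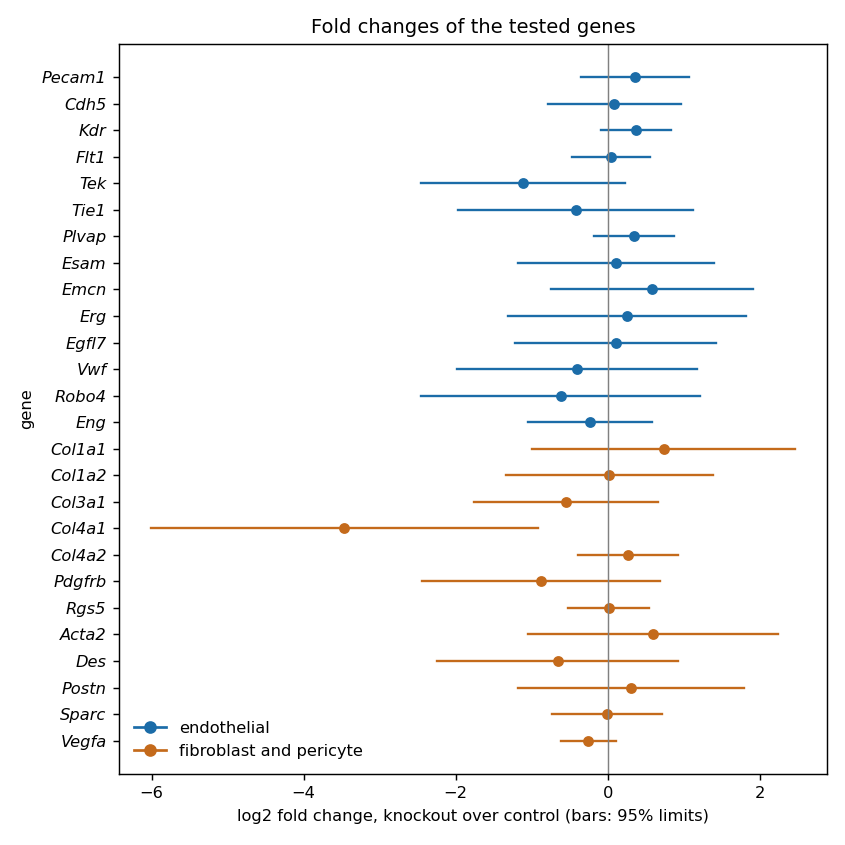
Log2 fold changes of knockout over control by limma on log2(normalized count + 8), for the 26 tested genes (points; blue endothelial, orange fibroblast and pericyte) with 95% limits (bars). The limits of Col4a1, -6.00 to -0.92, lie wholly below 0, and those of the other 25 genes include 0.

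Among the VEGF receptors, Kdr, which encodes the main signalling receptor VEGFR2, was at 767.1, 637.1, 672.4, 765.3 and 669.3 normalized counts in knockouts 1 to 5, against 581.4, 621.5, 492.2, 550.6 and 471.1 in controls 1 to 5. Every knockout lay above every control, though knockout 2 and control 2 were close. The groups of 0.862% of all genes tested did not overlap (0.435% with the knockouts above and 0.427% with them below), against this 1 gene of 26. The means were 702 ± 60.0 in knockouts and 543 ± 62.2 in controls (SD, n = 5 each). On the log2 scale Kdr was 0.37 ± 0.22 (SE) apart, with 95% limits of -0.09 to 0.83 and a limma adjusted p of 0.942. It was also 0.37 without controls 2 and 5. For Kdr the authors' deposited table holds a log2 fold change of 0.37 (adjusted p = 0.699).

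Flt1 encodes VEGFR1, which also has a secreted form that traps the ligand. It was at 495.6, 985.4, 989.7, 1028.6 and 795.6 in knockouts 1 to 5, against 960.8, 859.4, 599.9, 735.8 and 949.1 in controls 1 to 5. The groups overlapped, and knockout 1 held the lowest value of all 10 libraries for Flt1 but the highest for Kdr. The log2 fold change of Flt1 was 0.04 ± 0.25 (SE), with 95% limits of -0.48 to 0.55. Kdr took 60.8% of the summed value of both receptors in knockout 1 and 39.3% to 45.7% in the other knockouts, against 33.2% to 45.1% in controls.

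The ligand gene Vegfa, made by the endocrine cells and so no marker of stroma, was at 2369.9, 2711.2, 3174.9, 2808.2 and 2534.0 in knockouts 1 to 5, against 3518.6, 2313.6, 3460.9, 4576.0 and 2720.4 in controls 1 to 5. The knockouts lay within the range of the controls, where control 4 was the highest and control 2 the lowest. The difference in Vegfa was -0.25 ± 0.17 (SE, log2), with 95% limits of -0.62 to 0.11 and a limma adjusted p of 0.942. It was -0.50 without controls 2 and 5 and -0.13 without control 4.

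Plvap was at 1182.1, 624.5, 614.9, 698.7 and 550.8 in knockouts 1 to 5, against 615.3, 567.7, 563.3, 564.3 and 462.2 in controls 1 to 5. Knockout 1 stood far above the rest, and knockout 5 lay below 4 of the controls. Plvap differed by 0.35 ± 0.25 (SE, log2; limma adjusted p = 0.942), and by 0.16 without knockout 1.

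**Figure D3:**
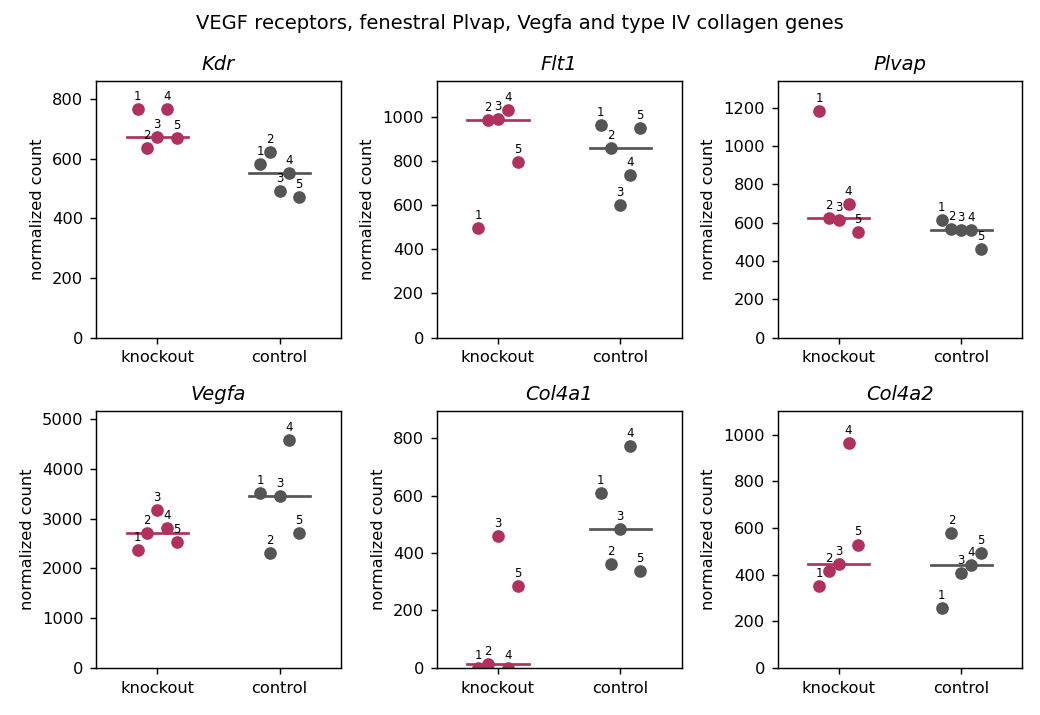
Normalized counts of Kdr, Flt1, Plvap, Vegfa, Col4a1 and Col4a2 (vertical axes, from 0) in knockouts and controls; points are libraries numbered 1 to 5 and lines are group medians. The 5 knockouts of Kdr lie above the 5 controls, and for Col4a1 knockouts 1, 2 and 4 lie at 0.0, 13.0 and 0.0 while Col4a2 is at 350.7 or more in the same libraries.

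The adhesion molecule gene Pecam1, a general endothelial marker, was at 218.9, 220.1, 328.7, 461.0 and 226.1 in knockouts 1 to 5, against 160.4, 228.8, 191.1, 259.2 and 251.0 in controls 1 to 5. Knockouts 3 and 4 lay above every control, and the other 3 within the controls' range. Its log2 fold change was 0.36 ± 0.34 (SE), and was 0.18 without knockout 4. Tek, the receptor for angiopoietins that steady the vessel wall, was at 3.6, 43.0, 43.8, 31.4 and 32.5 in knockouts 1 to 5, against 85.5, 84.7, 45.1, 42.4 and 92.4 in controls 1 to 5. Only knockouts 2 and 3 reached above the lowest control. The log2 fold change of Tek was -1.11 ± 0.64 (SE), with 95% limits of -2.45 to 0.23 and a limma adjusted p of 0.942, and it was -0.72 without knockout 1 and -0.87 without controls 2 and 5.

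Among the other endothelial genes, Cdh5 and Eng had log2 fold changes of 0.08 and -0.24. The glycoprotein gene Emcn had a log2 fold change of 0.58 ± 0.63 (SE), with values of 81.2 to 329.1 in the knockouts, against 8.8 in control 4 and 124.1 to 172.2 in the other controls; without control 4 the log2 fold change was -0.07. Esam, of endothelial junctions, and the secreted factor gene Egfl7 had log2 fold changes of 0.11 and 0.10. The transcription factor gene Erg was at 7.5 to 33.5 in the knockouts and 0.0 to 77.3 in the controls. Von Willebrand factor, encoded by Vwf and stored mostly by larger vessels, was listed at 0 in knockout 2 and reached 59.9 in knockouts and 90.2 in controls. The guidance receptor gene Robo4 was listed at 0 in knockouts 3 and 4 and in control 2.

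Knockout 1, with the lowest estimated depth, divided the endothelial genes. It held the highest of the 10 values for 4 of the 14, Kdr, Plvap, Esam and Emcn, and the lowest for 4 others, Cdh5, Flt1, Tek and Tie1. It was also listed at 0 for 10 of the 19 fibroblast and pericyte genes, against 4 to 6 in the other knockouts and 3 to 7 in the controls. The part of depth in these values was not tested.

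Of the type IV collagen genes, Col4a1 was at 0.0, 13.0, 459.1, 0.0 and 286.5 normalized counts in knockouts 1 to 5, against 609.3, 360.7, 485.2, 773.7 and 335.7 in controls 1 to 5. Knockouts 1, 2 and 4 lay far below every control, knockout 5 just below them and knockout 3 among them. The log2 fold change was -3.46 ± 1.15 (SE), with 95% limits of -6.00 to -0.92, a limma p of 0.0122 before adjustment and 0.942 after it. An exact 2-sided permutation test over the libraries gave p = 0.0317, where 252 arrangements allow no less than 0.00794. It was run for Col4a1 alone because of that limma p, is not adjusted for the choice, rests in part on values listed at 0 and so adds no independent evidence. The value depends on the pseudocount, at -4.77 with 1 and -2.48 with 32 in place of 8, and was -3.78 without controls 2 and 5. For Col4a1 the authors' deposited table holds a log2 fold change of -1.75 (adjusted p = 0.986). The authors' p before adjustment was 0.239 for Col4a1. It was 0.0415 for Kdr and 0.0080 for Cspg4, which was listed at 0 in 8 libraries.

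Col4a2 showed no such gap. It was at 350.7, 413.9, 446.7, 965.1 and 529.1 in knockouts 1 to 5, against 256.7, 577.8, 406.7, 441.5 and 491.0 in controls 1 to 5, so that knockout 4, listed at 0 for Col4a1, held the highest value of all. The log2 fold change was 0.26 ± 0.31 (SE), and was 0.03 without knockout 4 and 0.09 without control 1. Col4a1 took 0% to 50.7% of the summed value of both genes in the knockouts, against 38.4% to 70.4% in the controls. Of the 3231 genes with a mean of at least 300, 2 were listed at 0 in at least 2 knockouts and in no control, Col4a1 and the mitochondrial gene mt-Nd4l, and 2 others in at least 2 controls and in no knockout.

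Pericyte and smooth muscle genes were read from 4 tested genes. Pdgfrb, the receptor that draws pericytes to vessels, was at 0.0, 69.9, 72.8, 30.6 and 14.8 in knockouts 1 to 5, against 43.1, 74.6, 17.2, 80.0 and 91.4 in controls 1 to 5. Knockouts 1 and 5 lay below every control, and the difference was -0.88 ± 0.75 (SE, log2; limma adjusted p = 0.955). It was -0.52 without controls 2 and 5 and -0.36 without knockout 1. Rgs5, a G protein regulator of pericytes, was at 529 ± 85.4 in knockouts and 530 ± 124 in controls (SD, n = 5 each), apart by 0.01 ± 0.25 (SE, log2) with 95% limits of -0.52 to 0.54. The smooth muscle actin gene Acta2 was at 0.0 to 58.0 in knockouts and 1.8 to 44.7 in controls, and the filament gene Des at 0.0 to 58.0 and 10.2 to 51.5.

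Fibrillar collagens, the bulk of connective tissue, were low. Col1a1 was at 3.5, 18.2, 64.3, 42.3 and 85.5 in knockouts 1 to 5, against 0.0, 57.7, 18.7, 63.4 and 0.0 in controls 1 to 5. The groups overlapped over most of their range, at a log2 fold change of 0.74 ± 0.82 (SE), which was 0.34 without control 1 and 1.18 without knockout 1. Its partner chain Col1a2 was at 56.0 ± 16.5 in knockouts and 72.5 ± 67.3 in controls, and Col3a1 at 55.1 ± 27.4 and 91.0 ± 60.3 (SD, n = 5 each), log2 fold changes of 0.02 and -0.55. That of Col3a1 was -0.25 without control 3. Sparc was at 207 ± 33.0 in knockouts and 213 ± 54.7 in controls, a log2 fold change of -0.01 ± 0.35 (SE). Postn, a matrix protein of activated fibroblasts, was at most 39.0 in any library.

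Set against each other within a library, the lists were compared by their mean log2(value + 8). The endothelial genes averaged 7.02 ± 0.13 in knockouts and 7.06 ± 0.34 in controls, and the fibroblast and pericyte genes 6.54 ± 0.53 and 6.86 ± 0.31 (SD, n = 5 each). The second list holds Vegfa, no marker of stroma, and the type IV collagen genes, which endothelial cells also use. It is thus no pure level of fibroblasts and pericytes. Without Vegfa it averaged 6.10 ± 0.57 in knockouts and 6.43 ± 0.34 in controls. The endothelial minus the fibroblast and pericyte mean was 0.48 ± 0.59 in knockouts and 0.20 ± 0.58 in controls, a difference of 0.28 that is smaller than the spread within either group and was 0.09 without control 4. Col4a1 made up most of the gap in the second list: without it, a choice made after its values were seen, that list averaged 6.64 in knockouts and 6.67 in controls. As a description with no test, the median Spearman correlation between genes over the 10 libraries was 0.04 for 91 endothelial pairs, 0.02 for 66 fibroblast and pericyte pairs and -0.09 for 168 pairs across the lists, against 0.0061 for all pairs of genes tested. These points share library and depth. Within either list the median pair of genes thus varied almost without regard to each other.

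**Figure D4:**
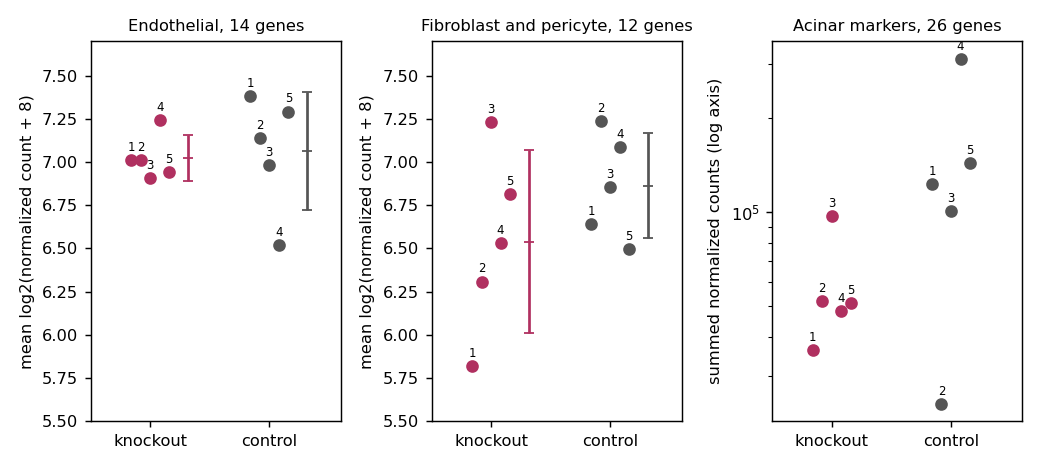
Mean log2(normalized count + 8) over the 14 tested endothelial and 12 tested fibroblast and pericyte genes (left and middle), and summed normalized counts of 26 acinar markers (right, log axis), in knockouts and controls; points are libraries numbered 1 to 5, and bars in the left and middle panels are the mean ± SD of 5 libraries. Both groups overlap in all 3 panels, with control 4 lowest for the endothelial genes and highest for the acinar markers.

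Markers of other cells were read from the same libraries. The 26 acinar markers, digestive enzyme genes of the exocrine tissue around islets, summed to 36302 to 97690 in the knockouts and to 24375 to 311023 in the controls, with control 4 the highest. Control 4 also held the lowest values for 3 of the 14 endothelial genes, Emcn, Erg and Egfl7, and the highest for Col4a1 and Vegfa. Of the acinar markers 22 of 23 tested had a log2 fold change below 0, and the defining markers Ptf1a and Zg16 were listed at 0 in at least 5 libraries. Ductal markers (11 genes) summed to 6305 to 8335 in knockouts and 8256 to 9717 in controls. Of these, Krt19 and Epcam were listed at 0 in at least 5 libraries. Immune markers (20 genes) summed to 962 to 1901 in knockouts and 987 to 1479 in controls, with 5 of 20 listed at 0 in at least 5 libraries. Lymphatic endothelial markers (4 genes) summed to 695 to 1164 in knockouts and 822 to 1286 in controls, with Pdpn listed at 0 in at least 5 libraries. Schwann and neural markers summed to 378 to 863 and 314 to 818, with 6 of 10 listed at 0 in at least 5 libraries. The 5 mesothelial and fat markers summed to at most 124 in any library, in a knockout, and 3 were listed at 0 in at least 5 libraries. β-cell markers (10 genes) summed to 970943 to 1283460 in knockouts and 960729 to 1183710 in controls, with knockout 5 the highest. The groups thus overlapped in this sum. All 10 log2 fold changes were below 0, with a median of -0.21. Over all genes tested 47.6% were above 0. The part of other cell types in the values above was not tested.

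Further genes of the same systems came from 5 lists of related genes. No member of any list passed an adjusted p of 0.05 by limma. In the vascular signalling list, 7 of 24 tested genes had values above 0 and 17 below, with a median log2 fold change of -0.29. Leaving out knockout 1 gave a median of -0.07, and leaving out control 2 one of -0.12. Before adjustment, 3 of the 24 were lower at a p under 0.05 and 0 higher, against 2.66% lower and 2.36% higher of all genes tested. Notch1, a receptor that restrains vessel sprouting and also acts in other cells, was at 186 ± 90.2 in knockouts and 360 ± 134 in controls (SD, n = 5 each), apart by -1.0003 ± 0.40 (SE, log2; limma adjusted p = 0.942). It was -1.26 without controls 2 and 5. Knockout 4 and control 4 were the highest of their groups for Notch1, at 291.4 and 539.8, and the groups overlapped. The endothelin receptor gene Ednrb was at 0.0 to 72.9 in knockouts and 46.5 to 130.2 in controls.

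The list of other endothelial identity genes had 10 of 26 tested above 0, a median of -0.08 (0.07 without knockout 1) and none at an unadjusted p under 0.05. Its smallest p-values were those of Ehd4, at 118.6 to 558.9 in knockouts and 96.3 to 353.6 in controls, and Podxl, whose coat protein also lines other cells, at 229.9 to 1005.2 and 222.4 to 307.2. Of other basement membrane genes, 11 of 20 tested were above 0, with a median of 0.02, or -0.06 without knockout 5 and 0.16 without control 4. The linker protein gene Nid1 was at 222 ± 57.9 in knockouts and 122 ± 60.7 in controls, apart by 0.89 ± 0.41 (SE, log2; limma adjusted p = 0.942). It was 0.57 without controls 2 and 5. The groups of Nid1 overlapped through control 4, at 223.3. Col18a1, the source of endostatin, was at 0.0 to 55.1 in knockouts and 21.96 to 174.7 in controls.

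Of other fibroblast matrix genes, 9 of 17 tested were above 0, with a median of 0.32 (0.19 without control 2). The median turned to -0.10 with no filter on low values and to -0.11 with a minimum of 50, so its direction depends on the filter. The 2 genes with the smallest p-values were both low. Col12a1 was at 7.8 to 88.5 in knockouts and 0.0 to 12.2 in controls, apart by 1.82 ± 0.68 (SE, log2; limma adjusted p = 0.942), or 3.596 with a pseudocount of 1 and 0.89 with 32. The fibrillin gene Fbn1 was at 7.4 to 65.6 in knockouts and 0.0 to 17.1 in controls. Of other mural genes, 3 of 6 tested were above 0, with a median of -0.04, or -0.46 without control 1 and 0.22 without knockout 1. Notch3, the Notch receptor of pericytes and smooth muscle, was at 0.0 to 89.6 in knockouts and 52.1 to 135.2 in controls, and the tropomyosin gene Tpm2 at 0.0 to 28.6 and 0.0 to 45.2.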

How the data were processed

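Islet RNA libraries, 5 knockout and 5 control, were grouped by the genotype label. Per the labels' protocols, RNA was depleted of ribosomal RNA and made into stranded, random-primed libraries. STAR 2.4.0.1, HTSeq and DESeq2 are listed, per the submitters' processing notes, with no role stated. Neither the authors' genome build nor the strand setting of their counting is given in the sources used here. The authors' deposited signal values are normalized counts per gene. Between 25.0% and 37.0% of values above 0 were whole multiples of a library's commonest low value, so whole reads were not recovered and no count model was used. The same deposited table holds the authors' log2 fold changes with their standard errors, a test score, and p-values. A single unnamed row among 17946 (0.00774% to 0.0251% of a library's total) was dropped. All value columns were mapped by name to a sample.

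Genes with at least 10 normalized counts in at least 5 libraries (11711) were compared as log2(value + 8) by limma (version 3.58.1, R 4.3.3), using a trended prior variance, robust estimates and Benjamini-Hochberg adjustment over all of them. Fold changes on this scale understate those of low genes. The fit was tested on data simulated with a normal spread on the log2 scale. It called 8.05% of the 87 2-fold and 31.9% of the 113 4-fold changes put in. Among genes with a mean over 500 it called 50% of 10 and 81% of 21, which are few genes. These shares also depend on the number of changed genes put in. Most 2-fold changes would thus be missed, and a gene that did not pass is not shown to be unchanged. Members, lists and alternatives were chosen with earlier results of these data known. Named were the 34 genes, 2 genes with the smallest p from each of 5 related lists, and Grk5 and Esr1. Values by library were set for genes with an unadjusted p under 0.05, the 3 of each list with the smallest p, and 6 fixed genes. Flt1, Col4a2 and mt-Nd4l were added after their values were seen. Gene positions and exon lengths are from GENCODE M21 on GRCm38 and promoters from RefSeq on GRCm38. Tables and figures used Python 3.11.15, pandas 2.3.3 and matplotlib 3.10.9. Alternatives were 3 scalings, 2 filters, 2 pseudocounts, another variance estimate, quality weights, and the omission of libraries singly or in 3 sets.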

Additional observations from a re-analysis of the deposited data

Results flagged for a closer look

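In groups of 5, a library was picked out when its gap to the nearest value exceeded 0.71 of the group's range (Dixon's 95% limit). For normally spread values chance gives this in about 1 of 20 groups. Of 68 groups of the 34 genes, 11 were picked out, and many of these are genes near 0, where that rate does not hold. The share over all genes was not computed, so the count is not read as an excess. Among knockouts, Plvap was 1182.1 in knockout 1 (others 550.8 to 698.7), Col3a1 was 103.7 in knockout 1 (39.2 to 48.1) and Sparc was 150.1 in knockout 5 (211.6 to 234.1). Dcn was 35.3 in knockout 4 (0.0 to 4.2), Thy1 was 47.5 in knockout 2 (0.0 to 2.4), and Lum was 14.8, Cldn5 2.64 and Mfap5 0.601 in knockout 3, each with the other 4 knockouts listed at 0. Among controls, Lum was 53.2 in control 1 (0.0 to 2.9), Acta2 was 44.7 in control 2 (1.8 to 11.1) and Thy1 was 56.2 in control 2 (0.0 to 14.7). Of the genes from related lists, Podxl was 1005.2 in knockout 4 (229.9 to 364.8), Col18a1 was 174.7 in control 2 (21.96 to 54.2) and Col12a1 was 12.2 in control 1 (0.0 to 3.0).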

How the results depend on the processing

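The number of genes past the adjusted threshold was 0 of 11711 by limma (587 at an unadjusted p under 0.05), and became 1 with neither trend nor robust estimates, 1 without controls 2 and 5, 4 without controls 2, 3 and 5, and 2 without controls 2 and 4. With single libraries left out it was 0 to 1. None of the 34 genes was among them under any alternative, and the lowest adjusted p of a tested member was 0.504. Of the 26 tested members, 14 kept their direction in every alternative that tested them, 22 for 8 of them (Kdr, Col4a1, Plvap, Pecam1, Vegfa, Pdgfrb and Col4a2 among these) and 21 for 6, Tek included, which fell under the minimum of 50. The number of endothelial genes with a value above 0, 9 of 14, was 5 without control 3 and 5 without control 4, in a range of 5 to 9 with single libraries left out. That of fibroblast and pericyte genes, 6 of 12, was 3 of 8 with a minimum of 50. The endothelial median ran from -0.13 to 0.22, and the endothelial minus fibroblast and pericyte difference was -0.07 without controls 2 and 4.

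Directions turned as follows, at values close to 0 for most genes, and the cause was not tested. Without controls 2, 3 and 5, Cdh5 was -0.12, Flt1 -0.0169, Eng 0.0546, Col1a2 -0.86 and Tpm2 0.0792. Without controls 2 and 5, Eng was 0.21, Col1a2 -0.74 and Sparc 0.0262. Without controls 2 and 4, Emcn was -0.17, Egfl7 -0.25, Col1a2 -0.26 and Sparc 0.17. With quality weights, Tie1 was 0.10, Esam -0.20, Col1a2 -0.14 and Sparc 0.0358. Col1a2 was -0.0549 with a pseudocount of 32, and Sparc 0.00927 with equal totals. With single libraries left out, Cdh5 ran from -0.15 to 0.38, Flt1 from -0.0680 to 0.22, Tie1 from -0.75 to 0.25, Esam from -0.19 to 0.57, Emcn from -0.0741 to 0.78, Erg from -0.14 to 0.71, Egfl7 from -0.29 to 0.50, Vwf from -0.73 to 0.14, Col1a2 from -0.31 to 0.43, Rgs5 from -0.0573 to 0.13 and Sparc from -0.16 to 0.10.

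Of the related lists, the median of the endothelial identity genes was 0.15 without controls 2, 3 and 5, and that of the fibroblast matrix genes was -0.10 with no filter on low values, -0.11 with a minimum of 50 and 0.79 without controls 2 and 4. Esr1 passed the threshold without controls 2 and 5 (7.703) and without controls 2, 3 and 5 (8.05). Controls 2 and 5 were left out for their Esr1, so this is no test of it. No paired analysis was possible because the labels do not pair any knockout library with a control. Low genes were imprecise: the standard errors of Robo4, Col1a1, Acta2 and Des, 0.75 to 0.87 on the log2 scale, leave changes of well over 2-fold inside their 95% limits.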
